A study of Mus musculus with 12 samples.

Results

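MC3T3-E1 is a mouse preosteoblast line taken from the skull vault, and the question here was which genes set it apart from a common reference RNA at every stage of its differentiation. Two-colour arrays of 1 design carried the RNA of these cells in Cy3 and a commercial mouse reference RNA (Stratagene) in Cy5, so each value is already a ratio of cells to reference. All 12 arrays of the series entered, 3 for each of 4 days. On every day the medium held ascorbic acid and a glycerol phosphate (8-glycerol phosphate in the labels), and no group without them was included. The labels describe Day 2 as cells in log phase growth, Day 5 as growth arrest, Day 10 as differentiating osteoblasts and Day 28 as mature osteoblasts. The 4 days were weighted equally in 1 mean per gene, and that mean was tested against 0, where 0 stands for equal signal in cells and reference. A whole plate was lysed for each RNA, so more cells with a transcript and more transcript per cell cannot be told apart.

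Several features of the design bear on every value. The reference was 1 RNA preparation, so the ratio leaves out its own spread, and its composition was not given in the sources used here. As background, the product of that name pools RNA of mouse cell lines from several tissues. The dyes were never exchanged, so a dye effect of a probe and a difference between cells and reference cannot be told apart. Whether the 3 arrays of a day stand for 3 cultures is not said in the labels, so the p-values may rest on technical spread alone. No spot intensities were used, and a weak spot could not be told from a bright one. Correlations between arrays ran from 0.723 to 0.923, and Day 10 replicate 3 and Day 5 replicate 2 stood apart, with array weights of 0.366 and 0.591 against 0.884 to 1.56 for the other 10 arrays.

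Osteoblasts descend from mesenchymal progenitors and build bone by secreting type I collagen, small proteoglycans that order its fibrils, and phosphate-handling enzymes that let mineral form on it. Their fate is set by transcription factors such as Sp7 and Dlx5 under control of BMP, Wnt and FGF signals. Cells of the skull vault share much of this matrix programme with fibroblasts and periosteal cells, so an identity is read from several gene groups and not from one marker.

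A log2 ratio above 0 was read as higher in the cells, a likely direction that the labels do not state. The reading rests on the time course, since dividing cells of Day 2 should hold more transcript of cell division than Day 28. The Day 28 mean lay below the Day 2 mean in 40 of 42 mitosis genes and in 40 of 47 DNA replication genes, against 6732 of all 12817 genes. With the opposite direction, higher and lower would change places throughout. The base of the logarithm was not stated either and was taken as 2.

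Most genes differed from the reference by a little. After Benjamini-Hochberg adjustment over 17504 rows (limma), 5392 rows (30.8%) were higher in the cells and 5435 (31.1%) were lower. A difference shown to exceed 2-fold by limma's treat test was found in 525 higher rows (3.00%) and 587 lower rows (3.35%). A gene was called far from the reference when it passed the test against 0 and its log2 ratio was at least 2, that is 4-fold, in the same direction on each of the 12 arrays. This held for 71 rows above (0.406%) and 77 rows below (0.440%), which name 62 genes above and 60 genes below by the first probe of each gene, or 0.484% and 0.468% of 12817 genes. These genes were chosen by the very values that follow, so their ratios are a description and their count against 0 is no further test.

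Far genes still spread over the arrays. Their mean log2 ratio had a median of 3.34 among the 62 genes above and -3.14 among the 60 below, and 23 genes above and 13 below stayed at least 8-fold from the reference on every array. The gap between the highest and the lowest array of a gene had a median of 1.46 above and 1.26 below, against 0.787 over all genes. A change between days, by an F test over the 4 day means, was called in 16 of the 62 genes above and 6 of the 60 below, where 6.28% of all genes and 931 of all rows (5.32%) were called. Day 28 was the day furthest from the reference for 23 of the genes above, and Day 10 for 32 of the genes below. Over all rows, values of 2 or more numbered 292 to 339 on the Day 28 arrays, against 149 to 171 on Day 2. Values of -2 or less numbered 311 to 318 on the Day 10 arrays, against 165 to 188 on Day 2. The day counts are therefore not particular to the far genes. A mean of 2 or more was reached by 169 genes, so 107 genes with a high mean fell short on at least 1 array, as did 101 of the 161 genes with a mean of -2 or less.

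**Figure D1:**
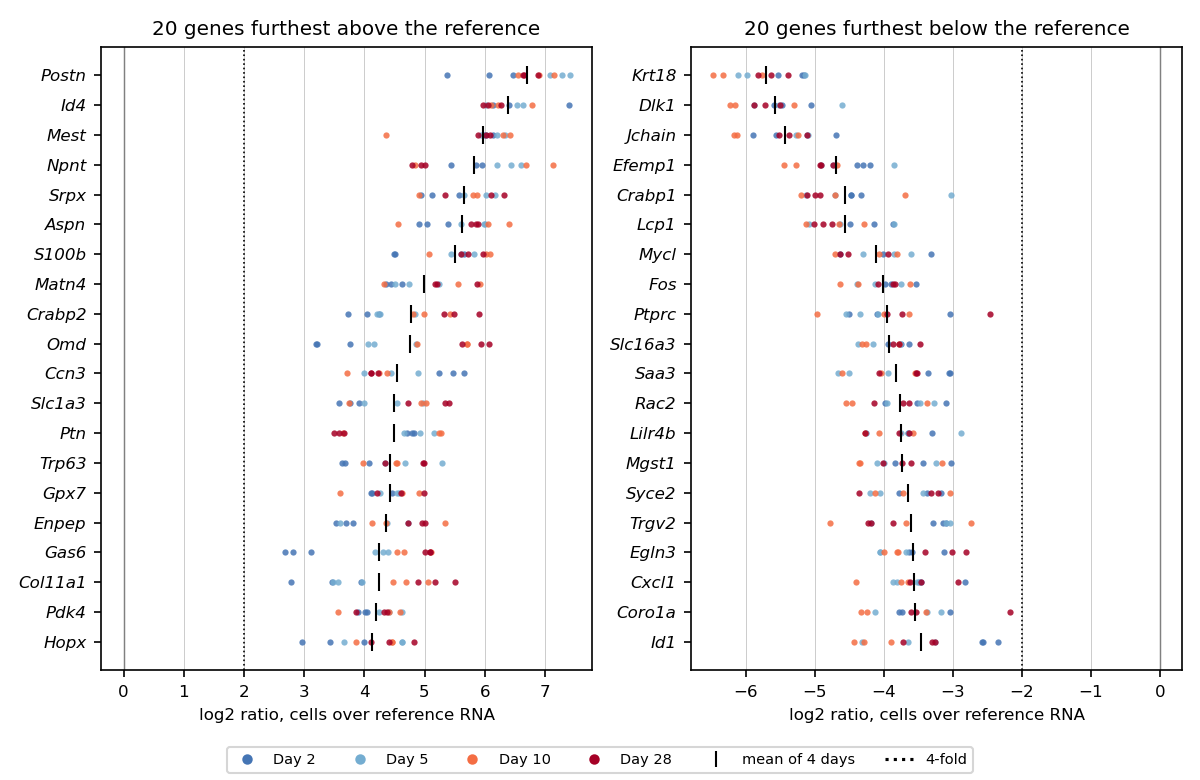
Log2 ratio of cells over reference RNA (horizontal axis) on each of the 12 arrays for the 20 genes furthest above and the 20 furthest below the reference; points are arrays coloured by day, the black bar is the mean of the 4 days and the dotted line marks 4-fold. Every point lies beyond the dotted line, as the choice of genes requires; Postn leads above with a mean of 6.71 and Krt18 below with -5.71.

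The small leucine-rich proteoglycans, which coat collagen fibrils and set their thickness, had the highest median of the 39 gene lists. Of 9 members measured, 7 were more than 2-fold higher and 0 were more than 2-fold lower, against 3.46% and 3.88% of all genes. The shares 3.46% and 3.88% are the base for the 2-fold counts of every list below. The median log2 ratio of the members was 3.46 against -0.01 over all genes. Aspn (asporin), Omd (osteomodulin, a keratan sulphate proteoglycan of bone) and Ogn (osteoglycin) were far above on every array. Aspn ran between 4.56 and 6.40 (median 5.81), with a mean of 5.62 ± 0.12 (here and below, SE of the fit over 12 arrays), a 49.2-fold excess in the cells. Omd ran between 3.20 and 6.06 (median 4.87), with a mean of 4.76 ± 0.093. Ogn ran between 2.25 and 4.18 (median 3.56), with a mean of 3.58 ± 0.14. Day by day, Omd stood at 3.39 ± 0.32 at Day 2, 4.36 ± 0.43 at Day 5, 5.43 ± 0.48 at Day 10 and 5.87 ± 0.23 at Day 28 (SD, n = 3 each), a change over days at adjusted p = 0.000236 (limma), while Ogn did not pass that test (adjusted p = 0.967).

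Lum (lumican) and Fmod (fibromodulin) had means of 5.69 ± 0.26 and 3.46 ± 0.18 and still missed the far rule, with lowest arrays at 1.71 and 0.81. Lum stood at 2.97 ± 1.09 at Day 2, 6.24 ± 0.14 at Day 5, 6.44 ± 1.87 at Day 10 and 7.09 ± 0.60 at Day 28 (SD, n = 3 each), so that it was lowest in the dividing cells. Fmod ran between 0.81 and 5.39 (median 3.40). Dcn (decorin) averaged 2.39 ± 0.076 and Bgn (biglycan) 1.51 ± 0.055, and both were above 0 on all 12 arrays. Kera and Chad, the cornea and cartilage members of the family, had means of 0.23 and 0.12 and no 2-fold difference.

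Aspn, Omd and Ogn follow each other directly on chromosome 13 among measured protein-coding genes, and the excess over the reference stopped at both ends of this block. Ecm2, the gene before Aspn, had a mean of 0.23 ± 0.059, and Nol8, the gene after Ogn, had -0.25 ± 0.061. Further out, Cenpp had -0.42 ± 0.065, Susd3 -1.68 ± 0.097, Ninj1 0.79 ± 0.046 and Iars -0.85 ± 0.10. The second probes of Cenpp and Susd3 lay nearer the reference, at -0.14 ± 0.11 and -0.30 ± 0.074. Since the block was picked for its values, the contrast with its flanks is a description. The proximal promoters of the 3 genes, from RefSeq on GRCm38.p6, plus strand, 300 bases each with the last 50 after the annotated start, are shown because these neighbours share a ratio; capitals mark, on either strand, TATAAA and the string TGTGGT that stands at the core of RUNX sites. They lie at chr13:49544193-49544492 (Aspn), chr13:49582212-49582511 (Omd) and chr13:49607765-49608064 (Ogn).
Aspn: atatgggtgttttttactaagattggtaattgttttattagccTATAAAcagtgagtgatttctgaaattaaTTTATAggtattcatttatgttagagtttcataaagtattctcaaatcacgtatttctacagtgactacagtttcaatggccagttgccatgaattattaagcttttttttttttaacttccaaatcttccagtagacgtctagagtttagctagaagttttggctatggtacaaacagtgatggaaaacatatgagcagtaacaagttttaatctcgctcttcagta
Omd: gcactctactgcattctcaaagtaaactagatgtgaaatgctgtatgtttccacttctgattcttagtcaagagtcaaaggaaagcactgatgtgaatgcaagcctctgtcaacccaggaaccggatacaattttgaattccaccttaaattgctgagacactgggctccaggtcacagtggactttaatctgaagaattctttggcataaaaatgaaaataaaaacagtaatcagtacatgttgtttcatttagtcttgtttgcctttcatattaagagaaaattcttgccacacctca
Ogn: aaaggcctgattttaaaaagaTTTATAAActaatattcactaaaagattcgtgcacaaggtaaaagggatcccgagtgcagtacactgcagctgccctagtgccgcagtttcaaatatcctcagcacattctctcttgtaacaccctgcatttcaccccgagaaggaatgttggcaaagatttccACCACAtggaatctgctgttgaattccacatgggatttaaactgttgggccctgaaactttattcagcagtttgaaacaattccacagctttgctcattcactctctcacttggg
The letters TATAAA occurred 2 times each in Aspn and Ogn, in Ogn as overlapping matches on the 2 strands, and 0 times in Omd, and 10.3% of 10220 promoters of measured genes hold it on either strand. TGTGGT occurred 1 time in Ogn and 0 times in Aspn and Omd, against 13.4% of promoters. The 3 windows thus share neither letter string, which says nothing of the factors that bind them.

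**Figure D2:**
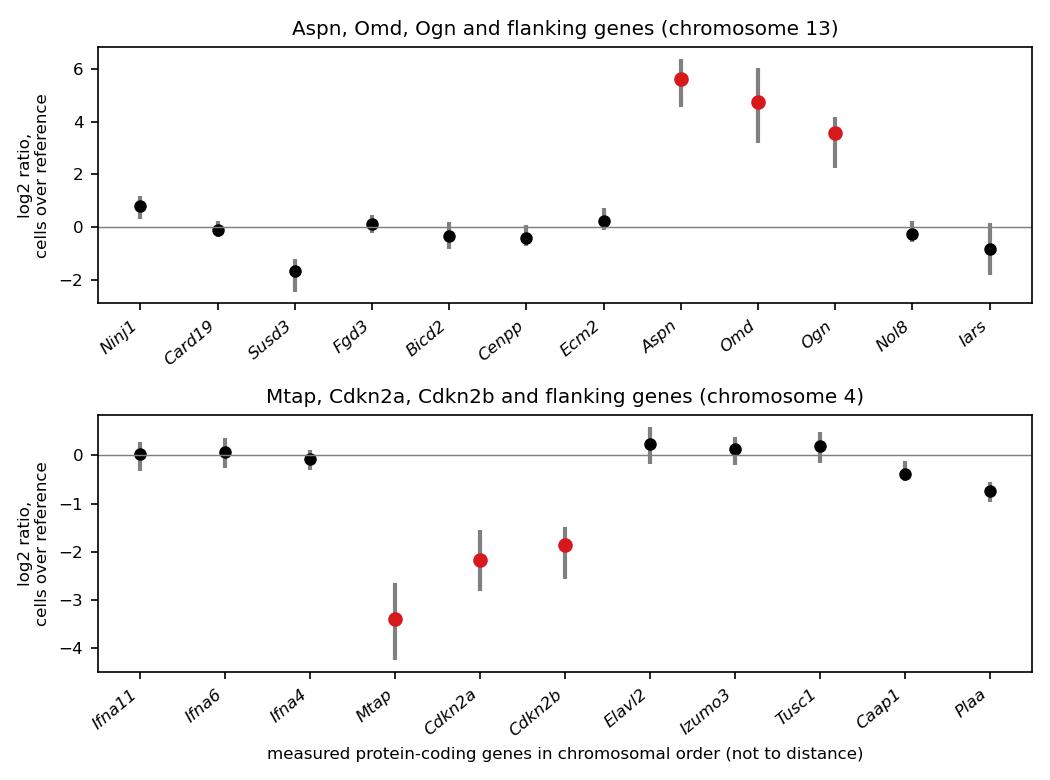
Mean log2 ratio of cells over reference RNA (vertical axis) for measured protein-coding genes in chromosomal order, with grey lines from the lowest to the highest of 12 arrays; red points mark Aspn, Omd and Ogn (upper panel) and Mtap, Cdkn2a and Cdkn2b (lower panel). The red genes stand apart from their neighbours. By the first probe of each gene, these lie between -1.68 (Susd3) and 0.79 (Ninj1) in the upper panel. In the lower panel they lie between -0.74 (Plaa) and 0.23 (Elavl2).

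Collagen genes also leaned above the reference. Of 26 measured, of all types, 13 were more than 2-fold higher (50.0%, against 3.46% of all genes) and 0 lower. The median was 1.23. The 2 chains of type I collagen, the bulk protein of bone, had means of 3.03 ± 0.083 (Col1a2, ranging over 2.05 to 3.54 (median 3.04)) and 2.48 ± 0.086 (Col1a1, ranging over 1.64 to 3.12 (median 2.50)). Col11a1, a minor fibrillar chain that nucleates fibrils, was the collagen furthest above, at 4.25 ± 0.094, and stood at 3.40 ± 0.58 at Day 2, 3.67 ± 0.26 at Day 5, 4.74 ± 0.29 at Day 10 and 5.19 ± 0.31 at Day 28 (SD, n = 3 each). Col1a2 and Col11a1 met the far rule, while Col1a1 dropped under 2 on its lowest array. Col15a1, a basement membrane collagen, averaged 4.03 ± 0.17 with a wide span of 1.01 to 6.79 (median 4.81). Among the others, Col27a1 averaged 2.38, Col6a3 2.23, Col5a2 2.11 and Col3a1 1.63, each more than 2-fold higher.

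The enzymes and chaperones that fold and cross-link collagen lay on both sides of the reference. Of 22 measured, 5 (22.7%, against 3.46% of all genes) were more than 2-fold higher and 2 (9.09%, against 3.88%) more than 2-fold lower, and the median was 0.00. Fkbp7 and P3h3, which act on collagen in the endoplasmic reticulum, averaged 2.39 ± 0.065 and 2.12 ± 0.05, and Serpinh1, the collagen chaperone HSP47, averaged 1.56 ± 0.068. Plod3, a lysyl hydroxylase, and Loxl2, a lysyl oxidase, lay below the reference at -2.29 ± 0.085 and -1.94 ± 0.10.

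Other matrix proteins were split between both extremes. Of 40 measured, 11 (27.5%, against 3.46% of all genes) were more than 2-fold higher and 5 (12.5%, against 3.88%) more than 2-fold lower. In this list 4 were far above and 1 far below, against 0.484% and 0.468% of all genes, and the median was 0.03. Postn (periostin, an adhesion protein of periosteum and tendon) had the highest mean of all genes, 6.71 ± 0.084, a 104-fold excess. Its ratios were 5.98 ± 0.56 at Day 2, 7.26 ± 0.16 at Day 5, 6.87 ± 0.29 at Day 10 and 6.72 ± 0.14 at Day 28 (SD, n = 3 each), lowest on Day 2. Matn4 (matrilin 4) averaged 5.00 ± 0.12 over 4.33 to 5.91 (median 4.95), and Lama4, a laminin chain of vessels and mesenchyme, 3.62 ± 0.083 over 3.13 to 4.43 (median 3.43). Fbn2 (fibrillin 2, of developing microfibrils) averaged 3.27 ± 0.13 and was far above as well. Efemp1 (fibulin 3) was far below, between -5.44 and -3.85 (median -4.73) with a mean of -4.70 ± 0.088, and Lama5, a laminin chain of epithelial basement membranes, averaged -2.38 ± 0.095. Npnt (nephronectin, an integrin ligand) and Srpx, a secreted sushi-repeat protein, which were in none of the lists, averaged 5.82 ± 0.15 and 5.65 ± 0.10 and were far above too.

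Matrix proteases were mixed, with 5 of 27 measured (18.5%, against 3.46% of all genes) more than 2-fold higher. A further 3 (11.1%, against 3.88%) were more than 2-fold lower, and the median was 0.12. Ctsk (cathepsin K, best known from osteoclasts), Mmp2 (gelatinase A) and Pappa, a protease that cleaves IGF-binding proteins, were far above. Ctsk averaged 3.81 ± 0.16 and stood at 2.59 ± 0.40 at Day 2, 3.33 ± 0.66 at Day 5, 4.11 ± 1.05 at Day 10 and 5.22 ± 0.36 at Day 28 (SD, n = 3 each). Mmp2 averaged 2.87 ± 0.05 over 2.14 to 3.17 (median 3.06) and Pappa 2.87 ± 0.054 over 2.54 to 3.38 (median 2.89). The second probe of Pappa gave 1.74 ± 0.078, lower than the first and on the same side of the reference. Mmp13, collagenase 3, averaged 4.33 ± 0.12 and was no constant feature, since its day means were 0.81 ± 0.41 at Day 2, 2.99 ± 0.44 at Day 5, 5.52 ± 0.83 at Day 10 and 8.00 ± 0.099 at Day 28 (SD, n = 3 each). Ctsl (cathepsin L) and Mmp3 (stromelysin 1) lay below, at -2.46 ± 0.061 and -1.96 ± 0.096.

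Osteoblast and mineralization genes leaned above the reference, with modest ratios that varied between arrays. The list median on a single array ran from 0.081 to 1.39. The Day 28 mean lay below the Day 2 mean in 5 of the 21 genes, against 6732 of all 12817 genes. Of 21 measured, 9 (42.9%, against 3.46% of all genes) were more than 2-fold higher and 1 (4.76%, against 3.88%) more than 2-fold lower. The median of the gene means was 1.13. Dlx5, a homeobox factor of bone formation, was the 1 far member, between 2.31 and 3.18 (median 2.90) with a mean of 2.83 ± 0.076. Sp7 (osterix, required for osteoblast formation) averaged 2.58 ± 0.15, with its lowest array at 0.94. Fgfr2 averaged 2.45 ± 0.16, Tnfrsf11b (osteoprotegerin, the decoy receptor that restrains osteoclasts) 2.40 ± 0.063, and Ibsp (bone sialoprotein) 2.10 ± 0.25. Alpl, the alkaline phosphatase of mineralizing cells, averaged 1.13 ± 0.15 and did not pass the 2-fold test (adjusted p = 1, limma treat). Among genes known from osteocytes, Sost averaged 0.13, Mepe 0.10 and Dmp1 1.01, and Dmp1 changed over days (adjusted p = 0.000462, limma). Slc20a1, a phosphate transporter, lay below at -1.44 ± 0.067. Runx2 and Bglap were not analysed here.

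**Figure D3:**
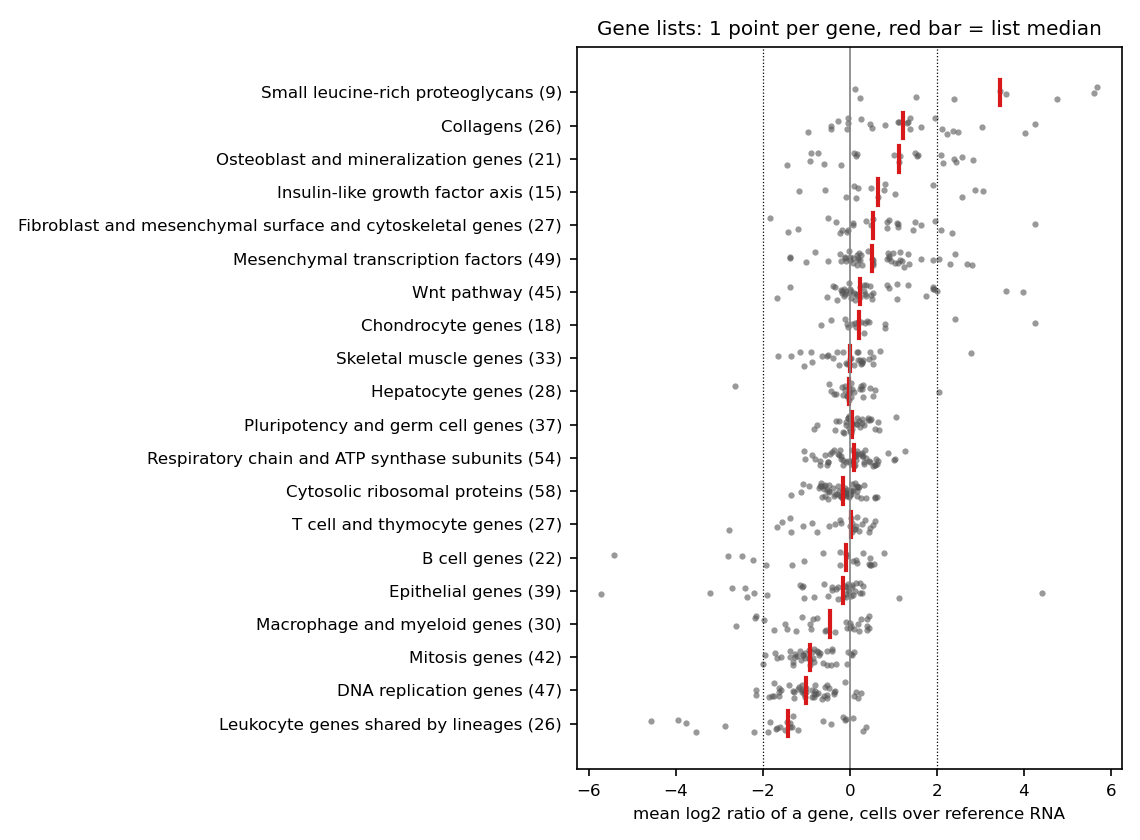
Mean log2 ratio of cells over reference RNA (horizontal axis) for every measured gene of 20 gene lists, with the number of genes in brackets; each grey point is a gene, the red bar the list median and dotted lines mark 4-fold. Medians run from 3.46 for the small leucine-rich proteoglycans at the top to -1.41 for the leukocyte genes at the bottom, and most lists in between centre near 0.

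Transcription factors of mesenchyme also leaned above the reference, with 10 of 49 measured (20.4%, against 3.46% of all genes) more than 2-fold higher. A further 2 (4.08%, against 3.88%) were more than 2-fold lower, the median was 0.52 and 0 genes were far. Prrx2 averaged 2.82 ± 0.069, Eya1 2.68 ± 0.14, Sox9 (the factor of cartilage formation) 2.42 ± 0.063, Gsc (goosecoid) 2.31 ± 0.09 and Tbx18 2.04 ± 0.055. These are factors with known roles in limb, craniofacial or body wall mesenchyme. Twist1 averaged 0.86, while its relative Twist2 lay below the reference at -1.39 ± 0.057. Among genes outside this list, Tfap2b (a neural crest factor) averaged 3.26 ± 0.12 and Irx3 3.71 ± 0.11, and both were far above. Trp63, a factor best known from stratified epithelium, averaged 4.42 ± 0.09 over 3.62 to 5.29 (median 4.44) and was the only far-above member of the epithelial list.

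Hox genes encode position along the body axis and are silent in most of the head. Of 34 measured, 0 were more than 2-fold higher and 2 (5.88%) more than 2-fold lower, near the 3.46% and 3.88% of all genes. Their median was -0.06 and the highest mean was 0.69 (Hoxb1). Hoxd8 averaged -2.53 ± 0.079 and Hoxb7 -1.50 ± 0.13. A ratio near 0 may stand for equal signal or for no signal in either channel, and these could not be told apart without spot intensities.

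Members of the Id family lay on both sides of the reference. Id proteins are helix-loop-helix factors that lack a DNA-binding region and sequester E proteins, and BMP is a known inducer of Id1, Id2 and Id3. Id4 was far above on every array, between 5.98 and 7.40 (median 6.24), with a mean of 6.38 ± 0.10, an 83.3-fold excess in the cells. Id1 was far below, between -4.43 and -2.35 (median -3.48), with a mean of -3.47 ± 0.084. Id2 averaged -2.81 ± 0.11 over -4.20 to -1.39 (median -2.92). Id3 crossed the reference, with day means of 0.42 ± 0.12 at Day 2, -1.84 ± 0.49 at Day 5, -2.14 ± 0.90 at Day 10 and -0.67 ± 0.10 at Day 28 (SD, n = 3 each) and a mean of -1.06 ± 0.12. Id4 therefore lay above the other members on all 12 arrays, and no array of Id4 overlapped any of theirs. This family was singled out after its values were seen. Id4 did not pass the test of change over days (adjusted p = 0.635, limma), while Id1, Id2 and Id3 did, at adjusted p of 0.0035, 0.00752 and 0.00157, with their lowest day means on Day 10.

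Of 43 BMP and TGF-beta pathway genes measured, 5 (11.6%, against 3.46% of all genes) were more than 2-fold higher. Another 5 (11.6%, against 3.88%) were more than 2-fold lower, and the median was -0.02. Fst (follistatin, which binds activin) averaged 2.46 ± 0.14, while the BMP antagonist Grem1 averaged -1.79 ± 0.083 and the shared mediator Smad4 -1.40 ± 0.058. The receptor Tgfbr2 averaged 1.63 ± 0.052 by its first probe and 0.34 ± 0.053 by its second. Chrdl1, a chordin-like BMP antagonist, had probes that differed in size: the first averaged 1.29 ± 0.077, and the second was far above with 4.54 ± 0.14.

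Wnt pathway genes had 8 of 45 members (17.8%, against 3.46% of all genes) more than 2-fold higher. A further 2 (4.44%, against 3.88%) were more than 2-fold lower, and the median was 0.23. Secreted modulators led them: Sfrp2 averaged 3.97 ± 0.065 over 3.32 to 4.84 (median 3.94), and Dkk3 3.58 ± 0.11 over 2.86 to 4.20 (median 3.62), both far above. The receptors Fzd1, Fzd8 and Fzd9 averaged 1.90 ± 0.18, 1.76 ± 0.065 and 1.93 ± 0.097, and the ligand Wnt5b 1.91 ± 0.091. Wnt4 and the nuclear effector Lef1 lay below, at -1.68 ± 0.083 and -1.37 ± 0.11.

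Of 15 genes of insulin-like growth factor signalling, 4 (26.7%, against 3.46% of all genes) were more than 2-fold higher and 0 lower. The median was 0.65. The ligand Igf1 averaged 3.05 ± 0.14 over 1.47 to 4.54 (median 2.90), the binding proteins Igfbp5 and Igfbp4 2.58 ± 0.084 and 1.91 ± 0.20, and Igfbp3 -1.17 ± 0.07. Together with Pappa, which cleaves Igfbp4, the genes higher than 2-fold comprised a ligand, 2 binding proteins and a protease. Of 50 other growth factor and receptor genes, 5 (10.0%) were more than 2-fold higher and 4 (8.00%) more than 2-fold lower. Over all genes the shares were 3.46% and 3.88%. Ptn (pleiotrophin, a heparin-binding factor of skeletal tissue) averaged 4.50 ± 0.11, the ephrin Efnb1 3.10 ± 0.072 and Fgf7 (keratinocyte growth factor, made by mesenchyme) 2.64 ± 0.086, all far above. Gas6, a ligand of the TAM receptor kinases, averaged 4.25 ± 0.057 and stood at 2.86 ± 0.22 at Day 2, 4.30 ± 0.10 at Day 5, 4.78 ± 0.30 at Day 10 and 5.06 ± 0.05 at Day 28 (SD, n = 3 each).

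Of 3 cellular retinoid-binding proteins measured, 1 was far above, 1 far below and 1 between them. Crabp2, which hands retinoic acid to its nuclear receptor, ran between 3.72 and 5.91 (median 4.83) with a mean of 4.77 ± 0.079. Crabp1, its close relative, ran between -5.20 and -3.03 (median -4.71) with a mean of -4.57 ± 0.16. No array of Crabp2 came within 4-fold of the reference, and neither did any array of Crabp1 on the other side, as the far rule requires. Crabp2 changed over days (adjusted p = 0.0031, limma), with means of 4.00 ± 0.26 at Day 2, 4.44 ± 0.35 at Day 5, 5.08 ± 0.32 at Day 10 and 5.57 ± 0.30 at Day 28 (SD, n = 3 each), and Crabp1 did not pass that test (adjusted p = 0.7). Rbp2, a retinol-binding protein best known from the intestine, averaged 0.20 ± 0.06. This family too was singled out after its values were seen.

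**Figure D4:**
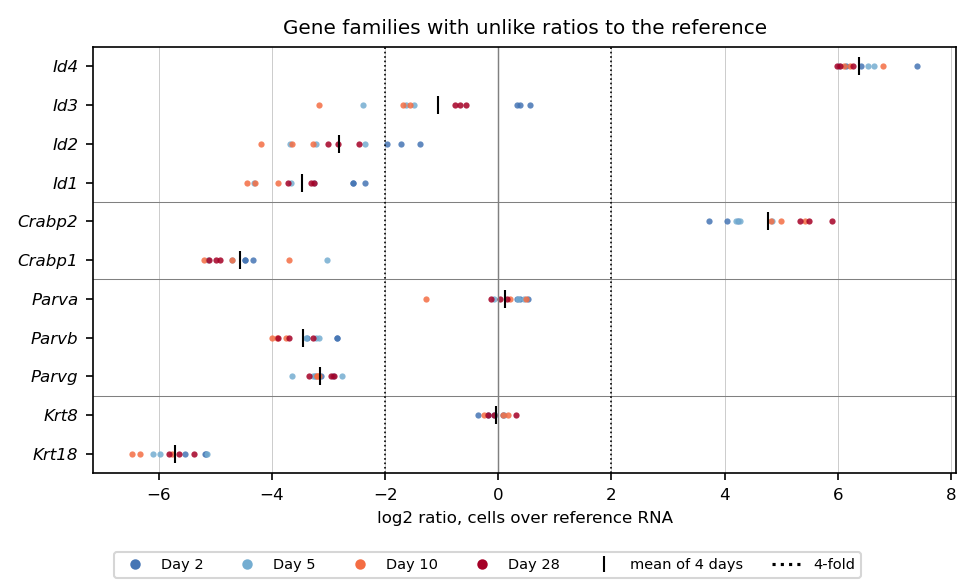
Log2 ratio of cells over reference RNA (horizontal axis) on each of 12 arrays for the Id, Crabp, parvin and type I/II simple keratin genes, coloured by day, with black bars for the mean of the 4 days and dotted lines at 4-fold. Id4 and Crabp2 lie at the far right and Id1, Id2 and Crabp1 at the left, while Parva and Krt8 sit near 0 with means of 0.12 and -0.036.

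Surface and cytoskeletal genes of fibroblasts also leaned above, with 6 of 27 (22.2%, against 3.46% of all genes) more than 2-fold higher. A further 2 (7.41%, against 3.88%) were more than 2-fold lower, and the median was 0.53. Gas6, described above, was the 1 far member of this list. Cdh11 (osteoblast cadherin) averaged 2.35 ± 0.044, Pdgfrb 1.96 ± 0.099 and Vcam1 1.64 ± 0.064. Vim (vimentin) stood at -0.075 ± 0.05, near the reference. Thy1 and Eng, both used as markers of stromal progenitors, lay below at -1.83 ± 0.085 and -1.42 ± 0.089, and were below 0 on all 12 arrays. Cd200 averaged 2.10 ± 0.11 and was no constant feature, with -0.18 ± 0.036 at Day 2, 0.65 ± 0.71 at Day 5, 2.49 ± 0.57 at Day 10 and 5.45 ± 0.26 at Day 28 (SD, n = 3 each). Contractile genes had 4 of 19 (21.1%, against 3.46% of all genes) more than 2-fold higher and 0 lower, with a median of 0.11. Cnn2 averaged 2.23 ± 0.055, Lmod1 1.98 ± 0.11, Cnn3 1.77 ± 0.061 and Acta2 1.75 ± 0.12.

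Imprinted genes, expressed from 1 parental copy and many of them active in embryonic mesoderm, held an extreme on each side. Mest averaged 5.98 ± 0.14 over 4.35 to 6.41 (median 6.06), a 63-fold excess, and Dlk1, a Notch-like inhibitor of adipocyte formation, averaged -5.58 ± 0.11 over -6.23 to -4.61 (median -5.56), 47.7-fold lower in the cells. Of 33 measured, 3 (9.09%, against 3.46% of all genes) were more than 2-fold higher and 1 (3.03%, against 3.88%) more than 2-fold lower. The median was 0.06.

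The Y-linked gene Eif2s3y was far above, between 3.09 and 3.78 (median 3.31) with a mean of 3.35 ± 0.063. Its second probe gave only 0.41 ± 0.076. Uty and Kdm5d, also on the Y chromosome, averaged 1.93 ± 0.071 and 1.68 ± 0.065, while Uba1y averaged -1.25 ± 0.076. Xist, the transcript that coats an inactive X chromosome, averaged -2.21 ± 0.093 over -2.93 to -1.59 (median -2.11). Of these 8 genes, 3 were more than 2-fold higher and 2 more than 2-fold lower. The sex of neither RNA source was given in the sources used here.

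Of the 60 genes far below, 16 belonged to any list, and 8 of these were in the 4 blood cell lists. The 39 lists name 1307 genes, not all of them measured, and 12817 genes were measured. Far below were 5 of 26 shared leukocyte genes, 2 of 22 B cell genes, 0 of 27 T cell genes and 1 of 30 macrophage genes. Over all genes the share was 0.468%. The lists were chosen with earlier results of these data known. Of 26 genes shared by leukocyte lineages, 17 (65.4%, against 3.88% of all genes) were more than 2-fold lower and 0 higher. Of these 26, 5 were far below, and the median was -1.41. Lcp1 (plastin 2, an actin bundler of leukocytes) ran between -5.13 and -3.86 (median -4.64) with a mean of -4.57 ± 0.1. Ptprc (CD45, the pan-leukocyte phosphatase) ran between -4.97 and -2.46 (median -4.04) with a mean of -3.95 ± 0.15. The haematopoietic GTPase Rac2 averaged -3.77 ± 0.11, the actin regulator Coro1a -3.54 ± 0.14 and the exchange factor Vav1 -2.87 ± 0.10. No array of these 5 genes came within 4-fold of the reference, as the far rule requires. Members near 0 were also seen, such as Laptm5 at -0.086 and Cd48 at -0.43.

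Lists of single blood lineages had fewer low members. B cell genes had 6 of 22 more than 2-fold lower, led by Jchain (the joining chain of secreted antibodies) at -5.43 ± 0.10, 43.2-fold lower in the cells, and the adaptor Blnk at -2.79 ± 0.095, both far below. T cell genes had 5 of 27 more than 2-fold lower, led by the adaptor Lat at -2.77 ± 0.17, and macrophage genes 7 of 30, led by Ctss (cathepsin S) at -2.62 ± 0.082. The shares more than 2-fold lower were 27.3%, 18.5% and 23.3%, against 3.88% of all genes. In none of these 3 lists was a gene more than 2-fold higher, where 3.46% of all genes were. Their medians were -0.08, 0.03 and -0.45. The T cell receptor segment Trgv2, outside these lists, averaged -3.61 ± 0.14. Over the 4 blood lists, 0 genes were far above, where 0.484% of all genes were. Lists of 22 to 30 measured genes are too small for 0 to be told from that share. Lilr4b and Lilrb4a, adjacent leukocyte receptor genes, averaged -3.76 ± 0.10 and -3.40 ± 0.066; they are near-identical copies, and how far their probes can be told apart is uncertain. How much of these differences lay in the cells and how much in the reference was not measured.

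Epithelial genes were lower as well, with 7 of 39 (17.9%, against 3.88% of all genes) more than 2-fold lower. Only 1 (2.56%, against 3.46%) was higher, and the median was -0.16. Krt18, a keratin of simple epithelium, had the lowest mean of all genes, -5.71 ± 0.088 over -6.47 to -5.14 (median -5.70), 52.4-fold lower in the cells. Krt8, the usual filament partner of Krt18, had -0.036 ± 0.06 and did not pass the test against 0 (adjusted p = 0.628, limma), with arrays between -0.35 and 0.31 (median -0.068). The adhesion molecule Epcam averaged -3.22 ± 0.082, Krt19 -2.72 ± 0.082, the protease St14 -2.41 ± 0.10 and the desmosomal genes Perp and Jup -2.38 ± 0.084 and -2.21 ± 0.054. Msln (mesothelin), outside the list, averaged -3.44 ± 0.097 and was far below.

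Few markers of other tissues were more than 2-fold from the reference, as was true of all genes (3.46% higher and 3.88% lower). In the lists that follow, 0.00% to 11.1% were higher and 0.00% to 7.14% lower by more than 2-fold. Many markers differed by less, and skeletal muscle genes, for instance, had 14 of 33 higher and 13 lower at any size. Hepatocyte genes had 1 of 28 more than 2-fold higher (Cebpa, 2.05 ± 0.065) and 1 lower (Ass1, -2.64 ± 0.12), and pluripotency and germ cell genes had 0 of 37 in either direction. Beyond 2-fold, skeletal muscle had 1 gene higher, Tnnc1 at 2.78 ± 0.074, and 1 lower, Mef2c at -1.65 ± 0.09. Chondrocyte genes had 2 of 18 higher, Col11a1 and Sox9, and Col2a1, the collagen that defines cartilage, averaged 0.80 ± 0.094. Of 14 adipocyte genes, 8 were higher and 3 lower, against 31.6% and 33.8% of all genes, and the median was 0.27. Beyond 2-fold, Cebpa, which this list shares with the hepatocyte list, was higher and Cd36 (-2.25 ± 0.072) was lower, while Pparg averaged -0.50. Neuronal genes had 1 of 28 higher and 2 lower, of which Eno2 (-2.70 ± 0.063) was far below. S100b, a calcium-binding protein of glia and cartilage, and Slc1a3, a glutamate transporter of glia, were in none of these lists and far above, with 5.50 ± 0.11 and 4.50 ± 0.11.

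Housekeeping groups stayed near 0 and division genes below it. Of 58 cytosolic ribosomal protein genes, 0 were more than 2-fold higher and 1 lower (median -0.15), and of 54 respiratory chain and ATP synthase genes, 1 and 0 (median 0.10). Proteasome genes had 0 of 30 higher and 1 lower, with a median of -0.18. DNA replication genes had 13 of 47 more than 2-fold lower and a median of -1.0, led by the helicase subunits Mcm7 at -2.17 ± 0.087 and Mcm5 at -2.15 ± 0.091. Mitosis genes had 7 of 42 lower and a median of -0.92, led by Cdc20 at -1.99 ± 0.12 and Mki67 at -1.96 ± 0.11. Already on Day 2, Mki67 averaged -1.20 ± 0.23 (SD, n = 3), below the reference in dividing cells.

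Mtap (methylthioadenosine phosphorylase, of methionine salvage) was far below, between -4.25 and -2.66 (median -3.38) with a mean of -3.39 ± 0.091. Its neighbours on chromosome 4, the cell cycle inhibitor genes Cdkn2a and Cdkn2b, averaged -2.17 ± 0.093 over -2.81 to -1.55 (median -2.20) and -1.85 ± 0.075 over -2.56 to -1.48 (median -1.82), and were more than 2-fold lower. The nearest measured genes outside the 3, Ifna4 on one side and Elavl2 on the other, averaged -0.075 ± 0.054 and 0.23 ± 0.058. The locus was singled out after its values were seen, and its copy number was not measured.

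The parvins, adaptors that tie integrins to actin, gave another split. Parvb and Parvg, neighbours on chromosome 15, averaged -3.45 ± 0.065 over -3.99 to -2.85 (median -3.39) and -3.14 ± 0.071 over -3.64 to -2.76 (median -3.18). The broadly expressed Parva stood at 0.12 ± 0.12, which did not pass the test against 0 (adjusted p = 0.393, limma), and passed it, at a mean of 0.26, once Day 10 replicate 3, its lowest array at -1.27, was left out (adjusted p = 0.00201).

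Other genes far above came from many functions. Ccn3, a matricellular regulator, averaged 4.54 ± 0.079 and was highest on Day 2, at 5.45 ± 0.21 (SD, n = 3). Gpx7, a peroxidase of the endoplasmic reticulum, averaged 4.42 ± 0.10, Enpep, a surface aminopeptidase, 4.36 ± 0.11, Pdk4, which restrains glucose oxidation, 4.20 ± 0.083, and the small homeodomain protein Hopx 4.12 ± 0.11. Clec11a, a secreted growth factor of bone marrow stroma, averaged 4.12 ± 0.097, and Cthrc1, a secreted collagen-triple-helix protein, 3.45 ± 0.065. The steadiest genes above were Copz2, Pde8a, Rnd3, Igsf3 and Fgf7 along with Eif2s3y. Copz2, a coat protein subunit of transport vesicles, ran between 2.01 and 2.51 (median 2.19), and Pde8a, a phosphodiesterase, between 2.05 and 2.55 (median 2.33).

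Other genes far below were as varied. Mycl, a MYC relative, averaged -4.11 ± 0.11, Saa3, an acute phase protein, -3.82 ± 0.092, the glutathione transferase Mgst1 -3.74 ± 0.11, the meiotic gene Syce2 -3.65 ± 0.12 and the chemokine Cxcl1 -3.56 ± 0.086. The steadiest below were Plek, Oas1g, Rasl11a, Alad, Kif24 and Ier2. Plek (pleckstrin, of platelets and leukocytes) ran between -3.19 and -2.62 (median -2.80), Rasl11a between -2.73 and -2.06 (median -2.57) and Alad, a haem synthesis enzyme, between -2.91 and -2.23 (median -2.67). Kif24 ran between -3.07 and -2.32 (median -2.60), but its second probe averaged 0.034 ± 0.043 and did not pass the test against 0.

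Values ran on without a gap across the edge of the far rule. Just inside above it were Copz2, Tfap2b and C2cd4b, whose lowest arrays stood at 2.01, 2.02 and 2.03. Just outside were Vgll3, Lrrc17 and Sox9, at 1.99, 1.97 and 1.95. Below, Vav1, Hmga2 and Ctss lay inside, with highest arrays of -2.02, -2.03 and -2.05, and Asb5, Xlr and Cyfip2 outside, with -1.98, -1.96 and -1.95. Probes also set a limit: 6 far genes had another probe, of which 5 had the same sign, 4 of these passed the test against 0 and 0 met the far rule. The other probe of 4930512B01Rik, with the same sign, averaged 0.098 ± 0.054 and did not pass (adjusted p = 0.136, limma), against 3.37 by the first. A further 4 genes (Bcl11b, Cyfip2, Scara5 and Chrdl1) were far by a later probe only.

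A pair of gene groups that were assembled after their values were seen had most of their means below the reference. Over all genes, 6303 of 12817 means lay above 0. Of all genes, 3.46% were more than 2-fold higher, 3.88% more than 2-fold lower and 0.468% far below. Immediate early genes, whose transcripts appear within minutes of a stimulus, had 19 of 22 means below 0, 15 more than 2-fold lower, 0 higher, 3 far below and a median of -1.64. Fos ran between -4.63 and -3.53 (median -3.94) with a mean of -4.01 ± 0.085, Fosl1 averaged -3.13 ± 0.092 and Ier2 -2.75 ± 0.077. Egr1 averaged -2.70 ± 0.096, Junb -2.08 ± 0.086 and Jun -1.67 ± 0.056, while Egr2 lay above at 0.79 ± 0.072. Genes of glycolysis and of the response to low oxygen had 21 of 25 means below 0, 14 more than 2-fold lower, 0 higher, 4 far below and a median of -1.75. The lactate exporter Slc16a3 ran between -4.38 and -3.48 (median -3.82) with a mean of -3.92 ± 0.067, the oxygen sensor Egln3 averaged -3.58 ± 0.065 and the glucose transporter Slc2a1 -3.33 ± 0.073. The enzymes Aldoa and Pgk1 averaged -2.37 ± 0.12 and -2.26 ± 0.12. The distance from the reference was not constant in this group: 6 of the 25 genes changed over days, where 6.28% of all genes did. Each of the 6 had its highest day mean at Day 28. Car9, a carbonic anhydrase, stood at -2.01 ± 0.72 at Day 2, -2.83 ± 0.46 at Day 5, -2.0 ± 0.38 at Day 10 and 0.47 ± 0.53 at Day 28 (SD, n = 3 each). Higd1a, a mitochondrial protein induced by low oxygen, stood at -1.38 ± 0.34 at Day 2, -1.80 ± 0.17 at Day 5, -0.80 ± 0.22 at Day 10 and 0.21 ± 0.28 at Day 28 (SD, n = 3 each). Pgk1 stood at -2.36 ± 0.89 at Day 2, -3.14 ± 0.12 at Day 5, -2.56 ± 0.17 at Day 10 and -0.96 ± 0.52 at Day 28 (SD, n = 3 each), and the mitophagy receptor Bnip3 at -2.55 ± 0.83 at Day 2, -3.03 ± 0.33 at Day 5, -2.83 ± 0.12 at Day 10 and -1.27 ± 0.48 at Day 28 (SD, n = 3 each). Of these, Car9 and Higd1a had Day 28 means above the reference. For Ndrg1 the probes averaged 0.10 ± 0.13 and -2.25 ± 0.059, and for Pfkl -2.47 ± 0.14 and -0.57 ± 0.079. A low ratio in these groups may sit in the cells or in the reference, and which of them was not tested.

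**Figure D5:**
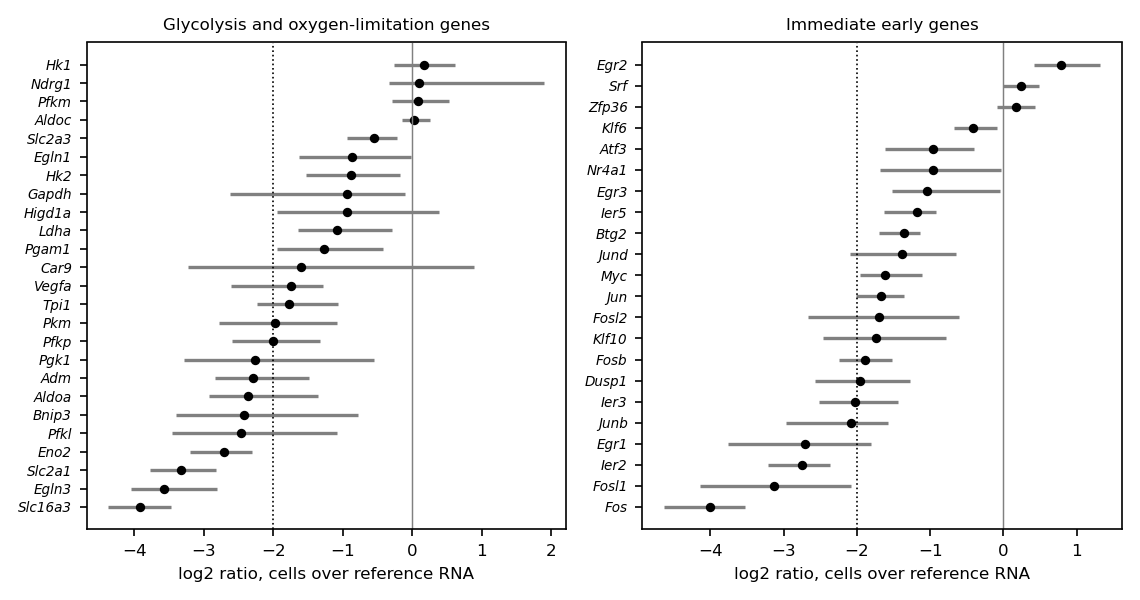
Mean log2 ratio of cells over reference RNA (points, horizontal axis) with lines from the lowest to the highest of 12 arrays, for genes of glycolysis and oxygen limitation (left) and immediate early genes (right); the dotted line marks 4-fold lower. In both panels most genes lie left of 0, down to -3.92 for Slc16a3 and -4.01 for Fos.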

How the data were processed

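RNA of MC3T3-E1 cells was hybridized with a reference RNA on 12 arrays, 3 for each of 4 days. The values are log2 ratios as deposited by the authors; per the submitters' processing notes, R 2.13.0 was used, and how background, normalization, log base and direction were set is not given in the sources used here. There were 17664 rows and no missing value, with column medians within 0.0132 of 0. Probe annotation gave 1 gene to 14010 rows, several to 13 and none to 3641, and 13908 of the first matched a RefSeq table of assembly GRCm38.p6, the source of names and gene order. Replicate spots of 10 genes were averaged, leaving 17504 rows and 12817 genes, each taken by its lowest-numbered probe.

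Each array was centred on its median and fitted with 1 mean per day in limma 3.58.1 (R 4.3.3), with 8 residual and 5.23 prior degrees of freedom. The equally weighted mean of the 4 days was tested against 0 and, by treat, against a log2 value of 1; an F test covered the days. P-values were adjusted by Benjamini-Hochberg over all rows, with a threshold of 0.05. On simulated data on 17504 rows, 48 of 50 rows shifted by 0.5, all 50 shifted by 1 and all 100 shifted by 3 were called, with 12 of 17304 unshifted rows. The simulated noise was normal and independent, without day changes, dye effects or outlying arrays. It therefore checks the fit and not the error rate in these data. Precision is limited by the number of arrays.

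Genes were named by these rules: the 20 furthest on each side, the 6 steadiest far genes on each side, the largest members of each of 39 lists and those against their list's sign, and the 3 genes on either side of each edge of the far rule; the text also names some genes outside the rules, whose values were known when they were picked (the families, chromosomal neighbours, the immediate early and glycolysis groups, and list members given as contrast). Members, lists and rules were chosen with earlier results of these data known, and lists are described by counts and medians without a test. Alternatives covered centring, scaling, probes, weights, spread, the replicate block and left-out arrays and days.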

Additional observations from a re-analysis of the deposited data

Results flagged for a closer look

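Some of the named genes were not constant over the course of culture: the F test over the 4 day means (limma, Benjamini-Hochberg over all rows) was passed by the genes below, each with its adjusted p.

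Day means that increased in the order of the days, with the highest ratio on Day 28, were found for the collagenase Mmp13 (6.08e-07), Cd200 (1.5e-06), Gas6 (1.64e-05), Igfbp5 (5.69e-05), Col15a1 (0.000107), C1ra (0.000202), Omd (0.000236), Dmp1 (0.000462), P3h3 (0.000475), Ifi47 (0.00161) and Col11a1 (0.00239). The same order held for Ctsl (0.00282), Crabp2 (0.0031), Fkbp7 (0.00343), Sfrp2 (0.0035), Fmod (0.0055), H2-D1 (0.00567), H2-Q7 (0.00965), Lum (0.0124), Ctsk (0.0127), Fzd9 (0.0171) and Ninj1 (0.0221).

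The highest day mean was also that of Day 28, without this order, for Grem1 (0.000585), Cebpa (0.000609), the first probe of Chrdl1 (0.00103), Mif (0.00531), Tnfrsf11b (0.00763), Pgk1 (0.00933), Egln3 (0.0349), Car9 (0.000401), Higd1a (0.000186), Bnip3 (0.0218) and Fzd8 (0.0433). It was that of Day 10 for Dcn (0.000302), Mmp2 (0.00558) and Uty (0.00951). It was that of Day 5 for Tnnc1 (0.000156), Egr1 (0.0168), Cdh11 (0.017) and Postn (0.0248), and that of Day 2 for Id3 (0.00157), Id1 (0.0035), Id2 (0.00752), Ccn3 (0.00602), Plod3 (0.0436), Parvb (0.0448) and Saa3 (0.0492).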

How the results depend on the processing

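Under the alternatives for centring, scaling, probes, weights, variance and arrays, all 122 far genes kept the test against 0 in each. This says little, since the genes were chosen by that test with at least 4-fold on every array. Most counts stayed within 1.5 times their value under these alternatives. An exception was the spread taken from the 4 day means, which left 338 rows higher by over 2-fold. Leaving out 1 array in turn gave 5051 to 5337 rows higher, 5175 to 5397 lower, 71 to 83 far above, 77 to 85 far below, 498 to 548 higher by over 2-fold and 559 to 618 lower by over 2-fold. Without the 2 arrays that stood apart these counts were 5301, 5359, 86, 88, 560 and 640. With fewer arrays the far rule asks less, so the far counts could rise but hardly fall. Centring on respiratory chain and proteasome genes gave 6263 rows higher and 4789 lower, with 117 of the 122 genes still far. Counts moved with the limit set: a treat threshold of 2 left 125 rows higher and 117 lower, a far value of 1 gave 290 and 357 rows, a far value of 3 gave 27 and 21, and asking it of each of the 4 day means gave 111 rows above. The count of rows changed over days, 931, was the least stable of these. It was 1655 with array weights, 1764 without the 2 arrays that stood apart, 421 with Day 2 omitted and 123 with Day 28 omitted. It ranged over 515 to 1429 on dropping 1 array, the lowest values being 612 and 596 (Day 2 replicates 2 and 3 dropped) and 528, 520 and 515 (Day 28 replicates 1, 2 and 3 dropped), the highest being for Day 10 replicate 3; the cause was not tested. Of 300 named genes, 2 changed sign under an alternative. Krt8 turned to 0.0058 with the centring above and 0.0032 with Day 2 omitted. Ndrg1 turned to -1.07 with its discordant probes averaged, -0.077 without the 2 arrays that stood apart and -0.087 with Day 5 omitted, and it ranged from -0.050 (Day 5 replicate 2 dropped) to 0.18 on dropping 1 array. With the spread between day means, 8 named genes no longer passed against 0 (limma): Rbp2 at adjusted p = 0.054, Kera at 0.0541, Dmp1 at 0.067, Id3 at 0.0696, Ecm2 at 0.0718, Cd200 at 0.0835, Chad at 0.105 and Sost at 0.128. Chad also lost its call with the replicate block (adjusted p = 0.0647), with Day 2, Day 5 or Day 28 omitted and on dropping any of 8 single arrays, Ecm2 and Rbp2 with Day 2 omitted, and Kera and Sost with Day 10 omitted. Mepe, Parva, Vim and H2-Ob, which did not pass, passed under at least 1 alternative. Replicate numbers did not pair the arrays: deviations of the 18 same-numbered pairs correlated at -0.271 to 0.205, 2 of them above 0.1, and 5 of 12 arrays matched their own number best. With the replicate block, 5269 rows were higher and 5356 lower, 71 and 77 far, 517 and 575 beyond 2-fold, and 697 changed over days. Weak spots limit the ratios, since spot intensities were not used here.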

Other observations

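Genes of inflammation and antigen presentation showed no common distance from the reference, with single members far out. Of 44 chemokines and cytokines measured, 8 (18.2%, against 3.88% of all genes) were more than 2-fold lower and 1 (2.27%, against 3.46%) higher. The median was -0.03. Cxcl1 averaged -3.56 ± 0.086, Cxcl5 -2.03 ± 0.09, Ccl2 -1.96 ± 0.066 and Ccl3 -1.98 ± 0.12, all lower in the cells, while the cytokine Il18 averaged 1.92 ± 0.085 and lay above. Mif averaged -1.96 ± 0.13 by its first probe and -0.044 ± 0.04 by its second.

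Of 35 interferon response genes, 2 were more than 2-fold higher and 2 lower (5.71% each, against 3.46% and 3.88% of all genes). The antiviral genes Oasl1 and Oas3 averaged -2.93 ± 0.15 and -2.14 ± 0.11, and the GTPase Ifi47 1.47 ± 0.07. Class I presentation genes had 2 of 13 more than 2-fold lower, H2-Q7 at -1.75 ± 0.067 and H2-D1 at -1.48 ± 0.084; these belong to a family of similar sequences, so that their probes may not be told apart. Class II presentation genes had 0 of 10 beyond 2-fold in either direction, and the complement gene C1ra averaged 1.58 ± 0.062.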
